A study of Mus musculus with 6 samples.

Results

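The 10 genes described here encode enzymes that make serine, pass its carbon through the folate cycle and make asparagine and proline: Phgdh, Psat1, Psph, Shmt1, Shmt2, Mthfd1, Mthfd1l, Mthfd2, Asns and Pycr1. They were chosen by symbol from the 55401 gene identifiers of a mouse count table, each symbol matching 1 identifier, and all 10 were among the 18253 genes with enough counts to be tested. The table holds 6 RNA-seq libraries of group 3 innate lymphoid cells (ILC3s), lymphocytes of the gut mucosa that lack antigen receptors, taken from lamina propria of the small intestine in wild-type mice. Cells of 3 libraries had been treated with PEox and cells of the other 3 with vehicle. PEox is not spelled out in the labels; it commonly abbreviates oxidised phosphatidylethanolamine, a lipid of ferroptotic cells. The sources used here do not give the dose, the exposure time, the animals' age or any pooling. The protocol text speaks of epithelial cells sorted from pups, whereas the sample labels name ILC3s.

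Serine synthesis branches from glycolysis in 3 steps: Phgdh oxidises 3-phosphoglycerate, Psat1 transfers an amino group to the product, and Psph removes the phosphate. Serine hydroxymethyltransferases (Shmt1 in the cytosol, Shmt2 in mitochondria) then split serine into glycine and a folate-bound carbon unit, which Mthfd2 and Mthfd1l convert to formate in mitochondria and Mthfd1 handles in the cytosol. Cells use these units to build purines and thymidylate. Asns makes asparagine from aspartate and Pycr1 makes proline in mitochondria. The transcription factor ATF4 is known to drive many of these genes when amino acids are short or the endoplasmic reticulum is stressed, and dividing lymphocytes are known to raise them.

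Libraries held between 56252806 and 66849230 counts, and levels are given as CPM, counts scaled to a common library size adjusted by TMM factors. ILC3 markers summed to between 12820 and 13080 CPM in vehicle and between 7371 and 7408 in PEox, of which the cytokine gene Il22 alone made 6660 to 6787 and 2445 to 2554. Of the 13 ILC3 markers 6 were called lower and 2 higher (Kit and Tcf7), the receptor genes Il7r, Il23r and Il1r1 and the factors Rora and Ahr were not called, and the median log2 fold change was -0.17. Intestinal epithelium markers summed to between 98.8 and 112.1 and between 60.5 and 67.6 CPM. Of the 14 epithelium markers 7 had enough counts to be tested, of which 3 were called lower and 0 higher. These 3 were Epcam (48.6 to 55.6 CPM in vehicle and 28.45 to 35.8 in PEox), Krt8 and Krt18. The enterocyte gene Alpi was the only one of the 14 at 0 counts in every library. Of all tested genes 18.8% were called lower and 18.3% higher, the shares to set beside each count of markers. Marker sums of other cells also differed between the groups. B and plasma cell markers lay at 271.2 to 292.2 CPM in vehicle and 37.5 to 43.3 in PEox, with 7 of 7 called lower. Mast cell and basophil markers lay at 136.2 to 149.6 and 15.9 to 21.4 CPM, with 5 of 7 called lower. For T cell markers the sums were 105.9 to 120.4 and 45.8 to 57.4 CPM, with 5 of 8 lower and 1 higher. ILC1 and NK cell markers ran from 174.6 to 187.6 and from 59.8 to 66.3 CPM (5 of 7 tested lower), ILC2 markers from 161.6 to 176.7 and from 115.7 to 119.0 (4 of 6 tested lower), and myeloid markers from 228.3 to 240.4 and from 111.5 to 159.3 (5 of 12 lower). Erythroid markers were higher in PEox, 2755 to 2802 against 5121 to 5808 CPM (5 of 8 higher), as were those of stroma and endothelium, 161.5 to 187.0 against 341.6 to 365.9 (4 of 6 tested higher). The part of these cells in the results below was not tested, and in bulk RNA fewer cells of a type and less RNA per cell cannot be told apart. No label ties a library to an animal of its own; a p-value therefore measures library-to-library spread, which may be technical only.

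Most of the pathway was lower after PEox. By the edgeR quasi-likelihood test, with p-values adjusted by the Benjamini-Hochberg method over all tested genes and a threshold of 0.05, 8 of the 10 genes fell, none rose, and Mthfd1l and Asns did not pass. Among all tested genes 37.1% were called, 18.8% as lower. The median log2 fold change of the 10 was -0.66, where that of all tested genes was 0.00. For the same 8 genes every PEox library was below every vehicle library; the groups were apart in this direction for 26.5% of all tested genes and in either direction for 50.6%. A fall of at least 2-fold was called for 3 of the 10 (Shmt1, Psat1 and Pycr1), against 6.98% of all tested genes. That count was 1, Shmt1, without vehicle library 1, under library size scaling and after removal of each library's trend on transcript length and GC content, which also took the median of the 10 to -0.43. Summed over the 10 genes, the level was 570.3, 532.0 and 530.9 CPM in vehicle libraries 1 to 3 and 335.0, 367.7 and 350.0 CPM in PEox libraries 1 to 3. The spread between PEox libraries was often wide: the coefficient of variation of a gene ran from 2.77% to 13.8% in vehicle and from 4.4% to 39.2% in PEox, and it was larger in PEox for 8 of the 10.

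**Figure D1:**
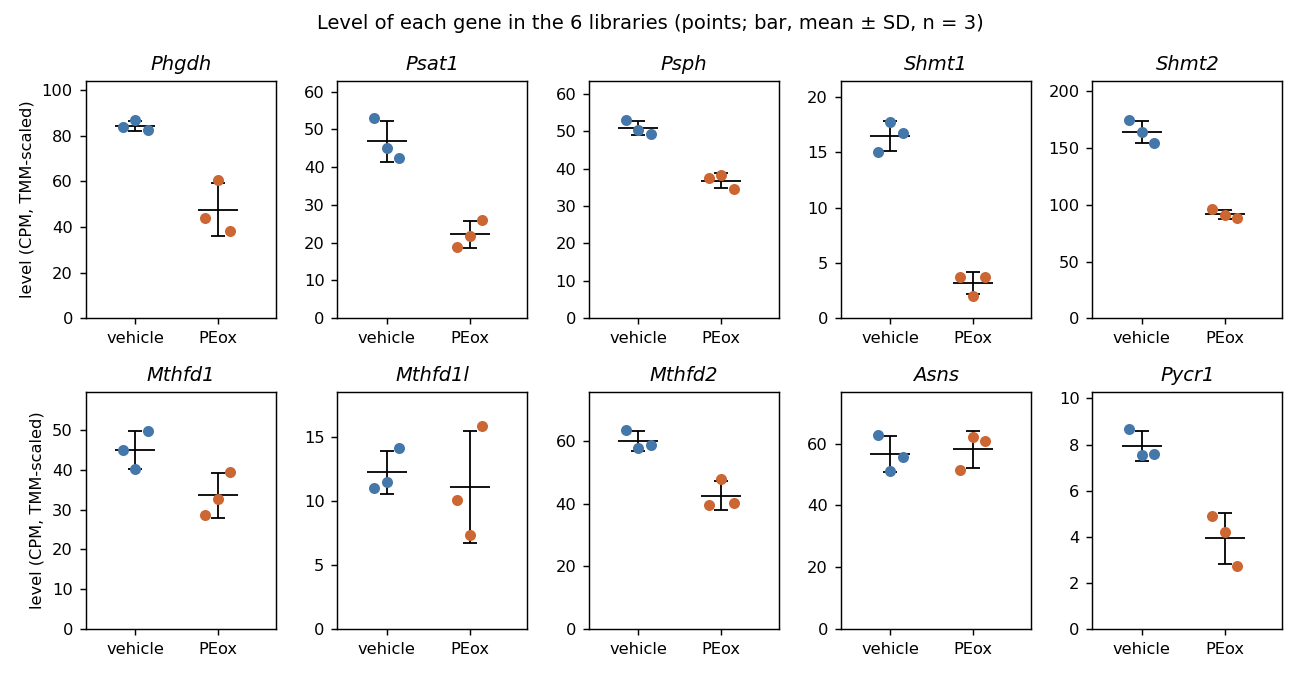
Level of each of the 10 enzyme genes (vertical axis, TMM-scaled CPM from 0) in the 3 vehicle and 3 PEox libraries (points), with mean and SD. The PEox points lie below all vehicle points for every gene except Mthfd1l and Asns, and Shmt1 has 14.99 to 17.7 CPM in vehicle against 2.03 to 3.73 in PEox.

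The 3 genes of serine synthesis all fell. Phgdh, the first and committed step, measured 83.5, 86.8 and 82.3 CPM in vehicle libraries 1 to 3 and 44.0, 60.6 and 38.1 CPM in PEox libraries 1 to 3. Every PEox library was below every vehicle library, with PEox library 2 the highest of its group. This gave -0.82 ± 0.15 as log2 fold change (SE; edgeR adjusted p = 0.00359), and -0.51 once that trend was taken out (adjusted p = 0.0387). Phgdh has an annotated processed pseudogene, Phgdh-ps1, to which 1 count was assigned in all libraries together.

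Psat1, the aminotransferase of the second step, was at 53.0, 44.99 and 42.4 CPM in vehicle and at 19.0, 21.7 and 25.96 CPM in PEox. Even the highest PEox library stayed well under the lowest vehicle library. PEox libraries held 0.474 of the vehicle level, -1.08 ± 0.14 on the log2 scale (SE; adjusted p = 0.000553, edgeR).

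Psph, the phosphatase of the last step, had a smaller estimate. It was at 53.1, 50.3 and 49.3 CPM in vehicle and at 37.4, 38.4 and 34.5 CPM in PEox, with little scatter in either group and no overlap. Its log2 fold change was -0.47 ± 0.08 (SE; edgeR adjusted p = 0.00261). Annotated Psph exons share 452 of their 4329 bases with the chaperonin gene Cct6a on the opposite strand, and the sources used here do not say whether the counting used strand. Cct6a itself had a log2 fold change of -0.27 (adjusted p = 0.018 by edgeR), so the Psph value is uncertain to the extent that reads were shared.

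Proportions between the 3 steps were compared within libraries. The log2 ratio of Psph to Psat1 counts within a library averaged 0.13 ± 0.11 in vehicle against 0.74 ± 0.29 in PEox (SD, n = 3), a difference of 0.61 with no overlap between groups (exact permutation p = 0.1, 2-sided, the smallest that 3 against 3 libraries allow). The ratio of Psat1 to Phgdh overlapped, at -0.85 ± 0.17 and -1.08 ± 0.48 (SD, n = 3 each; exact permutation p = 0.5). These are 2 of 6 ratios tested, and adjusted over the 6 the smallest p was 0.2, so none passed.

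Shmt1 and Shmt2, which both take serine apart, both fell. Shmt1, the cytosolic enzyme, was at 14.99, 17.7 and 16.8 CPM in vehicle and at 3.72, 2.03 and 3.73 CPM in PEox. PEox libraries held 0.192 of the vehicle level, the lowest share among the 10. Its log2 fold change was -2.38 ± 0.25 (SE; edgeR adjusted p = 0.000184), and 2.79% of tested genes had a lower one. Shmt1 exons share 184 of 3883 bases with Smcr8 on the opposite strand, a gene at 7.12 to 9.27 CPM in vehicle and 6.77 to 12.9 in PEox.

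Shmt2, the mitochondrial enzyme, had the highest CPM of the 10 in vehicle, at 174.4, 163.8 and 154.3 CPM, against 96.3, 90.8 and 88.4 CPM in PEox. Both groups were tight and far apart. It had the smallest p of the 10 (adjusted p = 3.78e-05, edgeR), at -0.84 ± 0.07 on the log2 scale (SE).

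Within libraries the log2 ratio of Shmt2 to Shmt1 counts was 3.54, 3.21 and 3.20 in vehicle and 4.69, 5.48 and 4.57 in PEox, a difference of 1.60 without overlap. An exact permutation test gave p = 0.1, the smallest possible, and 0.2 after adjustment over the 6 ratios, so this difference did not pass.

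The 3 folate cycle enzymes had estimates between -0.50 and -0.14. Mthfd2, the mitochondrial dehydrogenase and cyclohydrolase, was at 63.7, 57.9 and 58.8 CPM in vehicle and at 39.7, 48.0 and 40.1 CPM in PEox, without overlap. Its log2 fold change was -0.50 ± 0.10 (SE; edgeR adjusted p = 0.00458), but -0.23 and no longer called after removal of the trend on length and GC (adjusted p = 0.0921).

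Mthfd1, the cytosolic enzyme with 3 activities, was at 45.1, 40.2 and 49.7 CPM in vehicle and at 28.6, 32.6 and 39.6 CPM in PEox. The highest PEox library, number 3, came close to the lowest vehicle library, number 2. Its log2 fold change of -0.42 ± 0.14 (SE) passed narrowly (edgeR adjusted p = 0.0428). Leaving out vehicle library 1 (adjusted p = 0.118), 2 (0.0554) or 3 (0.151) or PEox library 1 (0.104) or 2 (0.0948) ended the call, as did scaling by library size alone (-0.28, adjusted p = 0.153).

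Mthfd1l, the mitochondrial formate-releasing enzyme, was at 11.1, 11.5 and 14.2 CPM in vehicle and at 10.1, 7.36 and 15.9 CPM in PEox. PEox libraries included both the lowest and the highest of the 6 values. The estimate of -0.14 ± 0.27 (SE; adjusted p = 0.744 by edgeR) has a 95% interval from -0.77 to 0.49, an interval that holds both the estimate of Mthfd2 and a rise. It was 0.08 without PEox library 2 and -0.49 without PEox library 3.

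Ratios of mitochondrial to cytosolic folate genes overlapped between the groups. The log2 ratio of Mthfd2 to Mthfd1 counts was 0.42 ± 0.16 (vehicle) and 0.35 ± 0.29 (PEox; SD, n = 3 each; exact permutation p = 0.8). For Mthfd1l over Mthfd1 it was -1.88 ± 0.13 and -1.66 ± 0.44 (SD, n = 3 each; exact permutation p = 0.5).

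**Figure D2:**
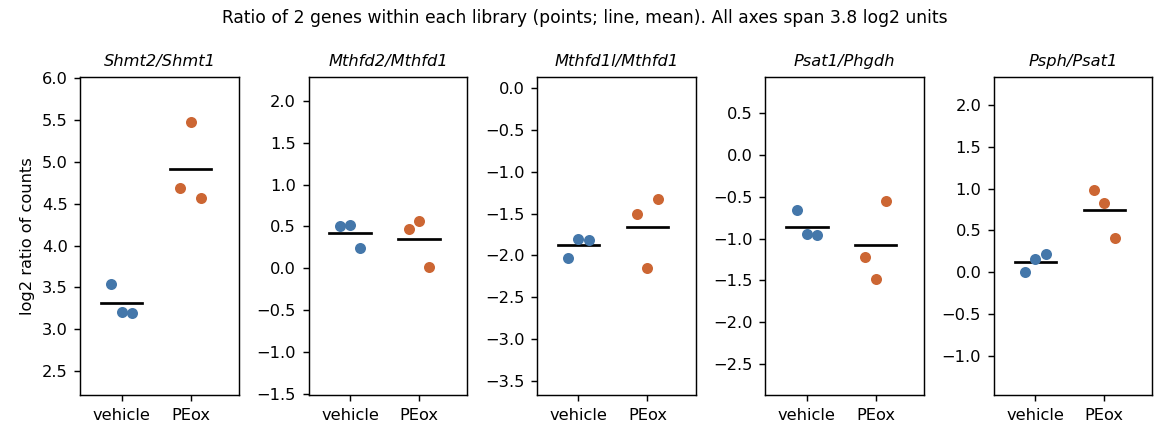
Log2 ratio of the counts of 2 genes within each library (vertical axis, each panel spanning the same width) for 5 pairs among the 10 genes, in 3 vehicle and 3 PEox libraries (points) with the group mean (line). The groups are apart for Shmt2/Shmt1 and Psph/Psat1 and overlap in the other panels; with 3 against 3 libraries no pair could pass, since the smallest p is 0.1.

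**Figure D3:**
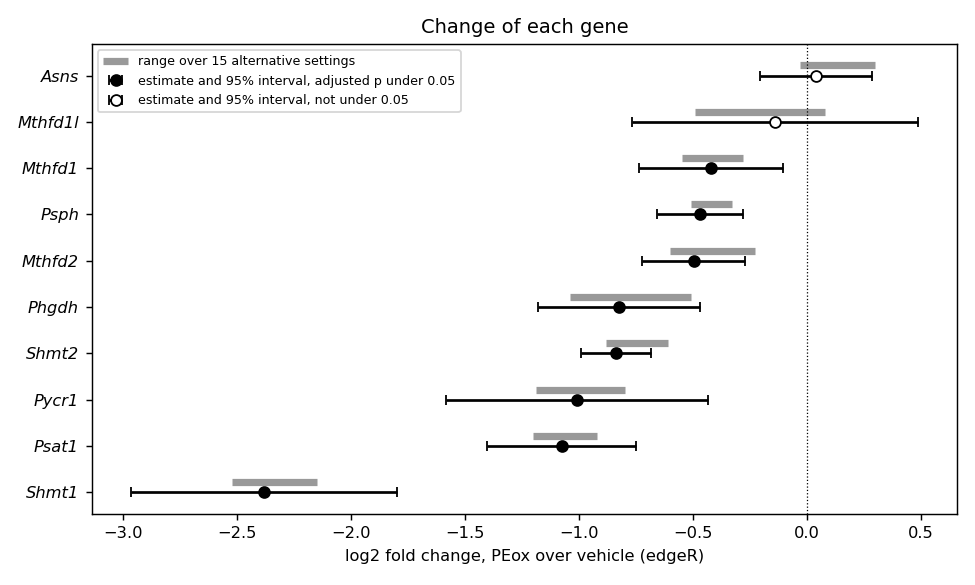
Log2 fold change of PEox over vehicle (horizontal axis) for each of the 10 genes, with the edgeR estimate and 95% interval (circles and thin bars; filled where the adjusted p is under 0.05) and the range over 15 other settings (grey). Shmt1 stands lowest at -2.38, and the intervals of Mthfd1l and Asns include 0.

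Asparagine synthetase did not pass the test. Asns was at 62.8, 51.2 and 55.7 CPM in vehicle and at 51.4, 62.1 and 61.0 CPM in PEox, and the groups overlapped almost fully. Its log2 fold change was 0.04 ± 0.11 (SE; edgeR adjusted p = 0.818), with a 95% interval from -0.21 to 0.29 that holds none of the estimates of the 8 genes called lower, the nearest being -0.42 for Mthfd1. Its sign turned to -0.03 without vehicle library 2 and to -0.02 without PEox library 2, and 0.30 was found after removal of the trend on length and GC (adjusted p = 0.0551).

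Pycr1, which reduces a precursor to proline in mitochondria, was low and fell further, from 8.67, 7.55 and 7.58 CPM to 4.88, 4.21 and 2.73 CPM. All PEox libraries lay below the vehicle libraries, and PEox library 3 was the lowest. A log2 fold change of -1.01 ± 0.25 (SE) passed (edgeR adjusted p = 0.0132), though not when vehicle library 1 was left out (-0.94, adjusted p = 0.0577).

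The proximal promoters of the 10 genes were searched for TGATGNAA, the letters of the composite element that C/EBP and ATF4 proteins bind, on both strands. RefSeq windows of 300 bases (GRCm38.p6, 250 before to 50 after the start site) were at hand for all 10 genes, 11 windows in all. Asns and Pycr1 had 1 match each and the other 8 genes had none, where 3.97% of all 32851 promoter windows hold one. The matches are shown in capitals, 5′ to 3′ on the gene's strand, because one lies at the gene with the estimate nearest 0 and the other at a gene that fell.
Asns, chr6:7693214-7693243, minus strand: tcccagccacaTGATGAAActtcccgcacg
Pycr1, chr11:120643784-120643911, minus strand: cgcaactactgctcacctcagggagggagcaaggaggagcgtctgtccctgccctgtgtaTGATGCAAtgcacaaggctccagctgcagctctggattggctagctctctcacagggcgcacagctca
The Asns match starts 23 bases before the RefSeq start site and the Pycr1 match 103 bases before it. In the GENCODE M21 annotation of the same build the Asns gene begins 45 bases further upstream, so there the match lies within the transcribed part. A match is a description of the sequence and not a measured binding site.

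Set against transcript length, which allows genes to be compared with each other, the order of the 10 differed between the groups. Levels were expressed as CPM per kilobase of the median protein-coding transcript. In vehicle Shmt2 (72.5 ± 4.46, SD, n = 3) and Phgdh (72.0 ± 1.998) led with overlapping ranges, followed by Psph (63.4 ± 2.42) and Asns (62.3 ± 6.41). The range of Asns, 56.4 to 69.1, overlapped those of Psph and of Shmt2, which began at 68.2. Below them came Mthfd2 (47.6 ± 2.47), Psat1 (20.4 ± 2.42), Mthfd1 (14.8 ± 1.56), Shmt1 (12.5 ± 1.04), Pycr1 (9.45 ± 0.76) and Mthfd1l (3.34 ± 0.46), of which Mthfd1 and Shmt1 overlapped. In PEox Asns led alone at 64.0 ± 6.50, above Psph, Phgdh and Shmt2 at 45.8 ± 2.51, 40.7 ± 9.96 and 40.6 ± 1.79, of which Phgdh overlapped both others, while Psph (42.99 to 47.8) and Shmt2 (39.1 to 42.5) were apart. Shmt1 moved to the last place at 2.39 ± 0.74, with a range overlapping that of Mthfd1l at 3.03 ± 1.19. With the longest protein-coding transcript instead of the median one, 43 of 45 pairs of genes kept their order in vehicle and 40 of 45 in PEox. Shmt2 and Phgdh were then no longer level in vehicle, at 71.7 against 44.5 CPM per kilobase. In PEox Shmt2 then led Asns, 40.1 against 28.8 CPM per kilobase.

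**Figure D4:**
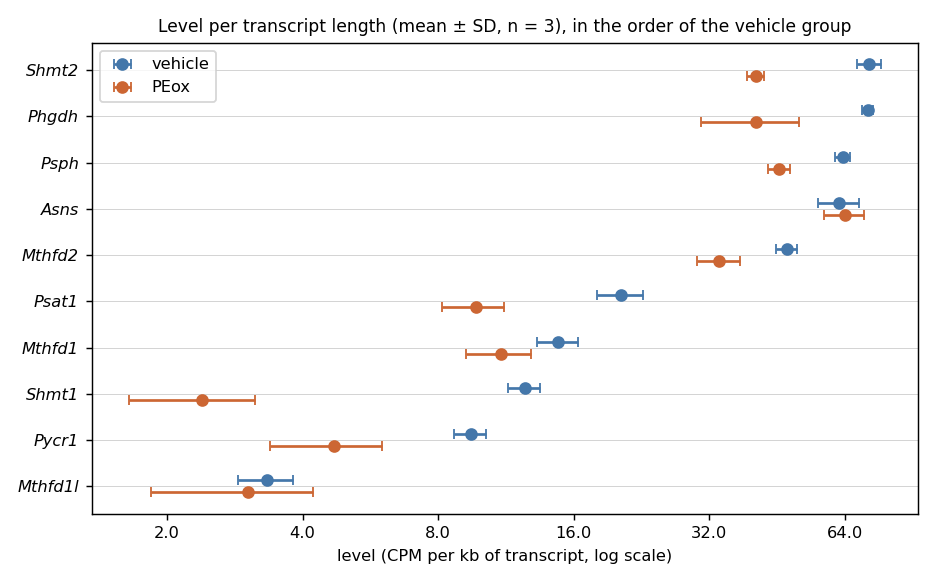
Level of the 10 genes per kilobase of transcript (horizontal axis, log scale; mean and SD of 3 libraries) in vehicle and PEox, listed in the order of the vehicle group. Asns has overlapping bars near 62.3 and 64.0, while Shmt1 moves from 12.5 to 2.39.

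Other genes of serine and glycine metabolism moved in both directions. In the list of serine and glycine genes, which holds 5 of the 10 enzymes, 6 of 13 tested genes fell and 3 rose (median log2 fold change -0.47). Of its 8 tested genes outside the 10, 3 rose and 1 fell (median 0.28). Of all tested genes 18.8% fell and 18.3% rose. Srr, the serine racemase, rose from 16.9, 15.4 and 16.7 CPM to 31.4, 37.5 and 37.1 CPM, or 1.11 ± 0.11 on the log2 scale (SE; adjusted p = 0.000136, edgeR). Dld, a subunit shared by the glycine cleavage system and several dehydrogenases, rose by 0.56 (edgeR adjusted p = 0.00101). Gcsh, the lipoyl carrier of glycine cleavage, fell by 0.38 (edgeR adjusted p = 0.00575), but lay at -0.02 after removal of the trend on length and GC (adjusted p = 0.874). Amt, the aminomethyltransferase, rose by 1.67 from a level of 0.385 ± 0.09 CPM (SD, n = 3; edgeR adjusted p = 0.0326), a call lost without a count filter (adjusted p = 0.0513), with replicate blocks (adjusted p = 0.0836) and without any single library other than PEox library 2 (adjusted p from 0.052 to 0.102). The list median was -0.62 without PEox library 1 and -0.67 without PEox library 2, and -0.29 after removal of the trend on length and GC.

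In the folate list, which holds Mthfd1, Mthfd1l and Mthfd2, 6 of 19 tested genes fell and 3 rose (median -0.19); among the 16 outside the 10 it was 4 and 3 (median -0.16), near the shares of all tested genes (18.8% lower, 18.3% higher). Tyms and Atic, which put one-carbon units into thymidylate and purines, fell. Tyms, thymidylate synthase, was at 58.7, 56.8 and 58.2 CPM in vehicle and at 21.4, 14.1 and 16.8 in PEox, or -1.73 ± 0.15 on the log2 scale (SE; adjusted p = 6.14e-05, edgeR). Atic, which completes purine synthesis, fell by 1.13 (edgeR adjusted p = 0.00125). Mthfd2l, the other mitochondrial dehydrogenase, did not pass at 0.07 (edgeR adjusted p = 0.873) and its sign turned without vehicle library 1 or PEox library 2 (-0.10 and -0.14). Without vehicle library 2 or 3 only 1 gene of the list rose. The median was -0.39 without PEox library 2 and -0.05 under library size scaling.

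All 16 genes of the DNA replication and division list fell, with a median of -2.41, where 18.8% of all tested genes fell. Examples were the helicase subunit Mcm5 (-2.27), the topoisomerase Top2a (-2.58), the mitotic kinase Cdk1 (-3.19) and the mitotic cyclin Ccnb1 (-4.29; edgeR adjusted p = 2.05e-06). Shmt1 and Tyms were lower in the same libraries; the part of cell division in their change was not tested.

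In the methionine cycle list 3 of 11 tested genes rose and 2 fell (median -0.05), shares near the 18.3% higher and 18.8% lower of all tested genes. Mtrr, which reactivates methionine synthase, rose by 0.95 (edgeR adjusted p = 0.00078), Amd1, a polyamine synthesis enzyme that uses S-adenosylmethionine, by 0.83 (adjusted p = 0.000332) and Ahcyl1 by 0.67 (adjusted p = 0.000881). Mtap, the methionine salvage enzyme, fell by 0.66 (edgeR adjusted p = 0.00396). Under library size scaling 5 genes of the list rose and 1 fell, and the list's median turned to 0.09. It was 0.17 without vehicle library 2 and 0.04 without PEox library 3, and 1 gene rather than 2 fell without vehicle library 2 or 3 or PEox library 1.

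Among asparagine, proline and glutamate enzymes, 7 of 16 tested genes fell and 5 rose (median -0.23). Without Asns and Pycr1 it was 6 and 5 of 14, where 18.8% of all tested genes fell and 18.3% rose. Aldh18a1, which supplies the precursor that Pycr1 reduces, rose from 65.5, 72.7 and 70.3 CPM to 98.4, 92.7 and 118.7 CPM (0.57 ± 0.10, SE; edgeR adjusted p = 0.00243), opposite in direction to Pycr1. Got1, the cytosolic aspartate aminotransferase, fell by 0.68 (edgeR adjusted p = 0.000524), whereas the mitochondrial alanine aminotransferase Gpt2 rose by 1.22 (adjusted p = 0.00203). Only 3 genes fell under library size scaling or without vehicle library 2, and 4 without vehicle library 1 or 3.

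Carriers of serine and related amino acids rose in 6 of 13 tested cases and fell in 2 (median 0.32), where 18.3% of all tested genes rose. Slc38a2, a sodium-coupled importer of small neutral amino acids, rose from 88.1, 89.6 and 92.3 CPM to 212.6, 226.6 and 237.5 CPM, or 1.33 ± 0.06 on the log2 scale (SE; adjusted p = 2.63e-06, edgeR). Slc3a2, the heavy chain of several amino acid exchangers, rose by 0.89 (edgeR adjusted p = 7.74e-06), and the glycine importer Slc6a9 rose by 2.60 from 1.39 ± 0.36 to 8.43 ± 2.43 CPM (SD, n = 3 each; adjusted p = 0.000325). Sfxn1, a carrier that brings serine into mitochondria, fell. It was at 117.4, 126.8 and 122.2 CPM in vehicle and at 58.9, 59.4 and 57.4 CPM in PEox, without overlap and with little scatter. This is -1.06 ± 0.06 on the log2 scale (SE; adjusted p = 7.93e-06, edgeR). Of its relatives in the list, Sfxn2 also fell (-0.86, edgeR adjusted p = 0.024). Sfxn3 was not called (0.15, edgeR adjusted p = 0.14), at a mean of 240.4 CPM in vehicle and 265.9 in PEox. Without vehicle library 2 or 3 or PEox library 3, 1 carrier gene rather than 2 fell.

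The ATF4 list, which holds none of the 10, is made up of Atf4, target genes and the eIF2α kinase genes Eif2ak1 to Eif2ak4. Of its 24 genes 9 rose and 5 fell (median 0.11), where 18.3% of all tested genes rose and 18.8% fell. The rises include Eif2ak1, Eif2ak3 and Eif2ak4, and the falls include Atf4 and Eif2ak2, so the counts are not those of target genes alone. Without vehicle library 1 or 2 the number rising was 6, and the median was 0.04 without PEox library 2, 0.17 without vehicle library 1 or PEox library 3 and 0.24 under library size scaling. Atf4 itself was at 246.2, 280.4 and 288.1 CPM in vehicle and at 242.6, 228.0 and 204.0 CPM in PEox, with vehicle library 1 and PEox library 1 nearly level. Its log2 fold change was -0.27 ± 0.08 (SE; edgeR adjusted p = 0.0306), but 0.02 after removal of the trend on length and GC (adjusted p = 0.888). The call was also lost under library size scaling (-0.14, adjusted p = 0.239), with replicate blocks (adjusted p = 0.0689) and without vehicle library 2 (0.115) or 3 (0.106) or PEox library 2 (0.0605) or 3 (0.0738). Trib3, a pseudokinase that feeds back on ATF4, rose by 0.78 (edgeR adjusted p = 0.00298), the eIF2α phosphatase subunit Ppp1r15a by 0.84 (adjusted p = 2.43e-05) and the stress kinase gene Eif2ak3 by 1.15 (adjusted p = 0.00296). Nupr1, a stress-induced chromatin protein, fell by 0.95 (edgeR adjusted p = 2.7e-05).

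**Figure D5:**
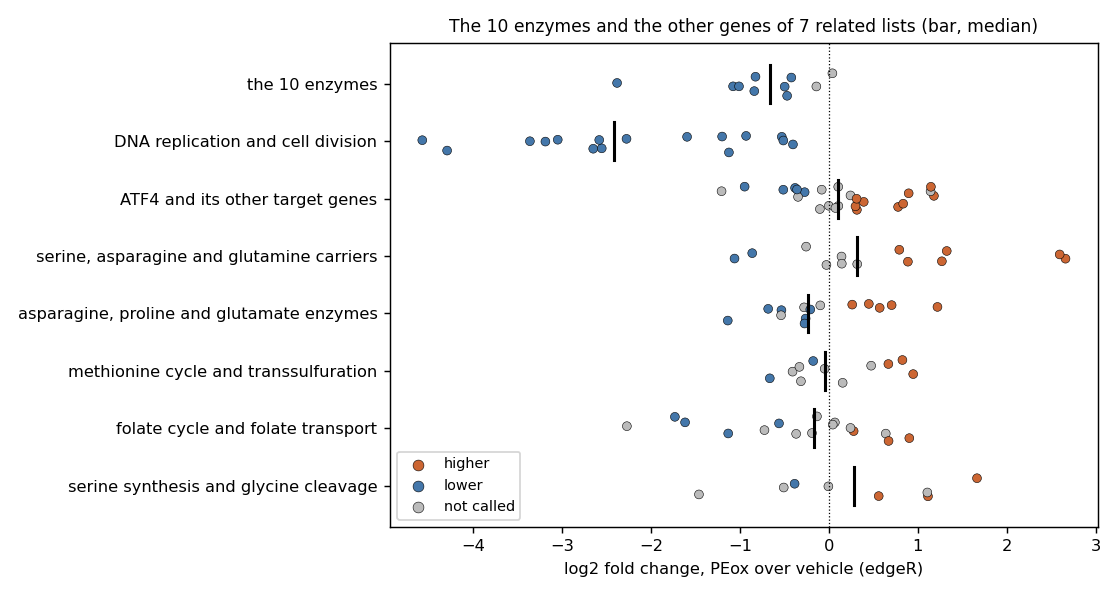
Log2 fold change of PEox over vehicle (horizontal axis) for the 10 enzymes and for the other tested genes of 7 related lists (points, coloured by call; bar, median). Division genes are all lower with a median of -2.41, the 10 enzymes have a median of -0.66, and amino acid carriers have 0.32.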

How the data were processed

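RNA of 3 vehicle and 3 PEox libraries was compared by gene. Per the labels' protocols, paired reads of 150 bp were cleaned with fastp and aligned with HISAT2 2.0.5 (the submitters' processing notes add edgeR 3.22.5). The sources used here name no counter, genome build, annotation or strand setting. The authors deposited raw counts, whole numbers without normalization, for 55401 identifiers, of which 55141 matched a symbol in a reference table of gene names (lengths and overlaps are from GENCODE M21); the unnamed held 0.015% to 0.0191% of counts. Columns were matched by sample title, and 0 were left unused. Of the list symbols, Gcat and Ddit3 matched 2 identifiers, and the lower-numbered was used.

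Genes were kept by filterByExpr (18253), scaled by TMM (factors 0.951 to 1.05) and tested by edgeR 4.0.16 (R 4.3.3, robust quasi-likelihood, group as the single term) with Benjamini-Hochberg adjustment over all tested genes. SE is the log2 fold change over the root of F. The common biological coefficient of variation was 34.5%. Per library, 3 counts equal 0.0472 to 0.0529 CPM. On simulated data the procedure called 0.0405% of unchanged genes. It called 48.9% of genes with a log2 fold change of 1 in either direction and 67% of those with 2. In the simulation 17279 of 17465 genes were unchanged, whereas 37.1% of tested genes were called in the data. The adjustment was therefore stricter in the simulation, and these rates do not carry over to the data. A gene that did not pass may still have changed. Replicates differed beyond counting noise (chi-square per gene 15.6 to 35.4, against 238 to 306 between groups). Replicate numbers were not used to pair libraries, because the labels do not say that equal numbers share an animal or day. Same-numbered libraries did not deviate together (correlations 0.005, 0.014 and -0.006), though with 3 libraries per group this check cannot exclude pairing.

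Members, lists and alternatives were chosen with earlier results of these data known. Named genes were the 10, the 4 others with the smallest p per list, and Atf4, Tyms and Mthfd2l; some genes that the rule takes, and 1 of the 6 ratios, are not reported here. Cell type markers, the overlapping genes Cct6a and Smcr8, the pseudogene Phgdh-ps1, the eIF2α kinase genes, Sfxn2 and Sfxn3 are named besides. Alternatives were RLE and library size scaling, no filter, at least 5 CPM in 3 libraries, replicate blocks, each library left out, DESeq2 1.42.0, limma-voom (limma 3.58.1) and removal of each library's loess trend (span 0.5) on transcript length and GC content. Sequences are from RefSeq, GRCm38.p6.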

Additional observations from a re-analysis of the deposited data

How the results depend on the processing

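Phgdh, Psat1, Psph, Shmt1 and Shmt2 kept their direction and passed the test in all 15 alternatives run, with log2 fold changes of -1.04 to -0.51, -1.20 to -0.92, -0.51 to -0.33, -2.52 to -2.15 and -0.88 to -0.61. Of the 10 genes, 6 to 8 were called lower and 0 higher in each. Their median was -0.52 under library size scaling, -0.43 after removal of the trend on length and GC and -0.45 with replicate blocks added to that, with 1 gene at least 2-fold lower in each of these; with a library left out it ran from -0.72 to -0.62, with 1 to 4 such genes. When a library was left out, Mthfd1 ran from -0.55 to -0.32 (call lost in 5 of 6 fits), Pycr1 from -1.19 to -0.80, Mthfd1l from -0.49 to 0.08 (reversed without PEox library 2), Asns from -0.03 to 0.12 (reversed to -0.03 without vehicle library 2 and to -0.02 without PEox library 2) and Mthfd2l from -0.14 to 0.27 (reversed to -0.10 without vehicle library 1 and to -0.14 without PEox library 2). The Mthfd1 call was also lost under library size scaling (-0.28), without a count filter (-0.44, adjusted p = 0.053) and after removal of the trend on length and GC (-0.35, adjusted p = 0.0792). Mthfd2 lost its call with that trend removed, at -0.23, or -0.24 together with replicate blocks, and Atf4 reversed to 0.02 in both of these fits. The cause of these changes was not tested.

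Under library size scaling, which shifts the median of all tested genes to 0.14 and gives 4411 higher and 2715 lower genes against 3337 and 3438, medians were -0.33 for serine and glycine, -0.05 for folate, 0.09 for methionine (5 higher, 1 lower), -0.10 for asparagine, proline and glutamate (3 lower), 0.46 for carriers, 0.24 for ATF4 and -2.28 for division genes. After removal of the trend on length and GC, and with replicate blocks added to it, they were -0.29 and -0.35 for serine and glycine, 0.04 and 0.09 for methionine, 0.07 and 0.07 for asparagine, proline and glutamate (4 lower in both), 0.24 and 0.24 for ATF4 (3 lower in both) and -2.34 and -2.34 for division; 2257 of all genes were lower in the second. The folate median was -0.37 with replicate blocks and with limma-voom. The methionine median was -0.13 without a filter and 0.14 at 5 CPM or more, where that of carriers was 0.22. With a library left out, medians ran from -0.67 to -0.41 for serine and glycine, -0.39 to -0.17 for folate, -0.11 to 0.17 for methionine and 0.23 to 0.44 for carriers. The number higher ran from 1 to 3 for folate and 6 to 9 for ATF4 (medians 0.04 to 0.17), and the number lower from 1 to 2 for methionine, 3 to 6 for asparagine, proline and glutamate and 1 to 2 for carriers.

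The replicate block, which the labels do not justify as pairing, left 8 of the 10 genes lower and changed no call among them (Mthfd1 -0.43, adjusted p = 0.0274). It called 3018 genes higher and 3141 lower. Vehicle library 1 correlated most with PEox library 1, and vehicle library 2 with PEox library 2, but vehicle library 3 with PEox library 1. All these correlations lay between -0.016 and 0.014, too close to 0 for the ranking to decide about pairing. The lowest counts among the 10 were those of Shmt1 in PEox (120 to 226) and Pycr1 (165 to 551).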
